A study of Sus scrofa with 15 samples.

Results

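The pluripotency factor genes examined here were POU5F1, NANOG, SOX2, SALL4, LIN28A, LIN28B, PRDM14, ESRRB, DPPA2 and DPPA4. These 10 genes were taken by symbol from a normalized RNA-seq table of 28224 known genes and 15070 assembled transcripts, where they had 11 entries because NANOG was listed on both chromosome 1 and chromosome 5. The measured material was pig fetal fibroblasts (PFF, passaged primary cells used as nuclear donors) and embryos made from such cells by somatic cell nuclear transfer (SCNT), each SCNT library being a pool of embryos. There were 5 groups of 3 libraries: PFF, untreated embryos at the 4-cell stage (SCNT4c) and at the 8-cell stage (SCNT8c), and 4-cell embryos under either of a pair of treatments. SCNT4c-KG embryos received KDM4A mRNA (1000 ng/µl, 5 h after activation), which encodes an H3K9 demethylase, together with 0.1 µM GSK126 up to 48 h, an inhibitor of the H3K27 methyltransferase EZH2. These agents were always given together, so their shares cannot be told apart. SCNT4c-TDG embryos came from puromycin-selected donor cells carrying a doxycycline-inducible vector for TDG, a DNA glycosylase of active DNA demethylation, and were kept in 500 ng/ml doxycycline from 40 to 72 h. Libraries given doxycycline alone were not analysed here, so the vector, the selection and the drug cannot be told apart from TDG itself.

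OCT4 (encoded by POU5F1), SOX2 and NANOG form the core transcription factor circuit that holds cells of the early embryo in an undifferentiated state, binding together at their own and each other's regulatory regions. SALL4, PRDM14 and ESRRB are transcription factors that work with this circuit, LIN28A and LIN28B are RNA-binding proteins that block maturation of the let-7 microRNAs, and DPPA2 and DPPA4 are chromatin-binding partners that prime early embryonic genes. At early cleavage an embryo carries maternal RNA beside the products of its own genome, and RNA-seq of whole embryos counts both.

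Values are the deposited library-scaled read numbers, called normalized values below. Total reads per library ranged from 12354649 to 15390472 in SCNT4c-KG and from 17757929 to 22868038 in the other groups. TDG stood at 49857 to 59944 in SCNT4c-TDG against 939 to 2541 in SCNT4c, and KDM4A at 1429 to 1476 in SCNT4c-KG against 134 to 313, as the labels of those groups say. KDM4A was also at 555 to 918 in SCNT4c-TDG, and TDG at 3886 to 4738 in SCNT4c-KG. The 3 SCNT4c libraries are called a, b and c because the labels number them in conflicting ways. SCNT8c replicate 3 stood apart: its mean correlation over 18942 features was 0.772 with its own group and 0.859 with SCNT4c. Summed fibroblast markers were 3895120 to 4125360 in PFF and 4472 to 5889 in SCNT4c, above the 2566 to 3811 of SCNT4c-KG, the 1660 to 2235 of SCNT4c-TDG and the 2264 to 2883 of SCNT8c, while VIM and THY1 of these markers were called higher in SCNT4c-KG (log2 fold change 1.59 and 2.76). Summed oocyte and maternal markers were 186617 to 247151 in SCNT4c, 96840 to 174147 in SCNT4c-KG, 23257 to 28814 in SCNT4c-TDG and 56059 to 149350 in SCNT8c, with BMP15, GDF9, NOBOX and MOS, 4 of the 12 markers, listed at 0 in all embryo groups. Of the 7 oocyte and maternal markers tested in SCNT4c-KG, PADI6 and ZP4 were called lower and ZP3 higher, with a mean of 28.1 in SCNT4c and 667 in SCNT4c-KG. Summed cumulus cell markers were 1410 to 1809 in SCNT4c, 939 to 1198 in SCNT4c-KG, 516 to 646 in SCNT4c-TDG and 1430 to 1926 in SCNT8c. Of the 4 tested, INHBA was called lower in both treatments and STAR higher in SCNT4c-KG. In these whole-embryo libraries, fewer cells holding a transcript and less of it per cell cannot be told apart. The part of maternal RNA in any difference below was not tested.

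The NANOG entries needed the genome sequence to be read. The entry on chromosome 1 (Sscrofa11.1, chr1:169064134-169065292, plus strand) was a single exon of 1159 bases inside the gene THSD4, while the entry on chromosome 5 (chr5:62931642-62939086, plus strand) had 5 exon blocks. Their coding sequences were both 915 bases long, lay in 1 and 4 blocks respectively, and were 99.8% identical, with 2 mismatches (G124T and C258G, chromosome 1 base first, counted from the first coding base). The windows of coding sequence around the mismatches are shown because they hold the only coding positions at which a read can tell the copies apart by its bases; the differing base is in capitals, and the first chromosome 5 window joins 2 exons across an intron (chr5:62932668-62935872).
NANOG chromosome 1, chr1:169064420-169064480: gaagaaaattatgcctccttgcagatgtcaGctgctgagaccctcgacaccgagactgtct
NANOG chromosome 5, coding positions 94 to 154: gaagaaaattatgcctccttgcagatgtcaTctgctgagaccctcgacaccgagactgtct
NANOG chromosome 1, chr1:169064554-169064614: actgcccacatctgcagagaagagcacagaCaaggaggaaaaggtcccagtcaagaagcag
NANOG chromosome 5, chr5:62935946-62936006: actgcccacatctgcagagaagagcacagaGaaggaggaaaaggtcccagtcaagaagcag
The longest run of coding sequence without a mismatch was 657 bases, longer than the reads of 150 bases. The authors counted only reads that mapped to 1 place, so the number assigned to each NANOG copy is uncertain. Apart from this pair, the exons of SOX2, POU5F1, SALL4, PRDM14, ESRRB, LIN28A, LIN28B, DPPA2 and DPPA4 had no other genomic match of at least 95% identity over 150 bases.

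Of the 11 entries, 6 had a mean of at least 10 over the 12 embryo libraries and were tested: POU5F1, NANOG on chromosome 1, SOX2, ESRRB, LIN28B and DPPA4. A gene was called where limma gave a Benjamini-Hochberg adjusted p under 0.05 over all 18942 features tested and a fold above 2 on the log2(value + 1) scale, a scale that understates changes of low genes. In SCNT4c-KG against SCNT4c, 3 of the 6 rose (NANOG on chromosome 1, SOX2 and DPPA4) and none fell, against 17.6% of all features called higher and 19.6% lower. In SCNT4c-TDG against SCNT4c, 2 of the 6 rose (NANOG on chromosome 1 and SOX2) and none fell, beside 15.7% and 17.6% of all features. With edgeR and DESeq2 on the recovered reads, 2 and 3 of the 6 were called in SCNT4c-KG, all higher, against 30.8% and 38.2% of all features in either direction. In SCNT4c-TDG each tool called 3, with NANOG on chromosome 1 and SOX2 higher and POU5F1 lower, against 29.2% by edgeR and 36.9% by DESeq2. In SCNT8c against SCNT4c none was called by limma, where 2.62% of all features were called higher and 3.16% lower, or by edgeR, where 4.45% were called in either direction. DESeq2 called 1 (DPPA4, higher), against 14.4% of all features, and 2 had an unadjusted p under 0.05 by limma, as had 28.9% of all features. In SCNT4c-TDG against SCNT4c-KG, 2 fell (SOX2 and DPPA4) and none rose, beside 9.13% and 7.07% of all features, while edgeR called 1 gene and DESeq2 3, all lower, against 13.5% and 20.9% of all features in either direction. The median log2 fold change of the 6 genes was 1.2, 0.16, 0.05 and −1.55 in these comparisons, and that of all features −0.30, −0.26, −0.31 and −0.02. The first 3 comparisons share the SCNT4c libraries.

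**Figure D1:**
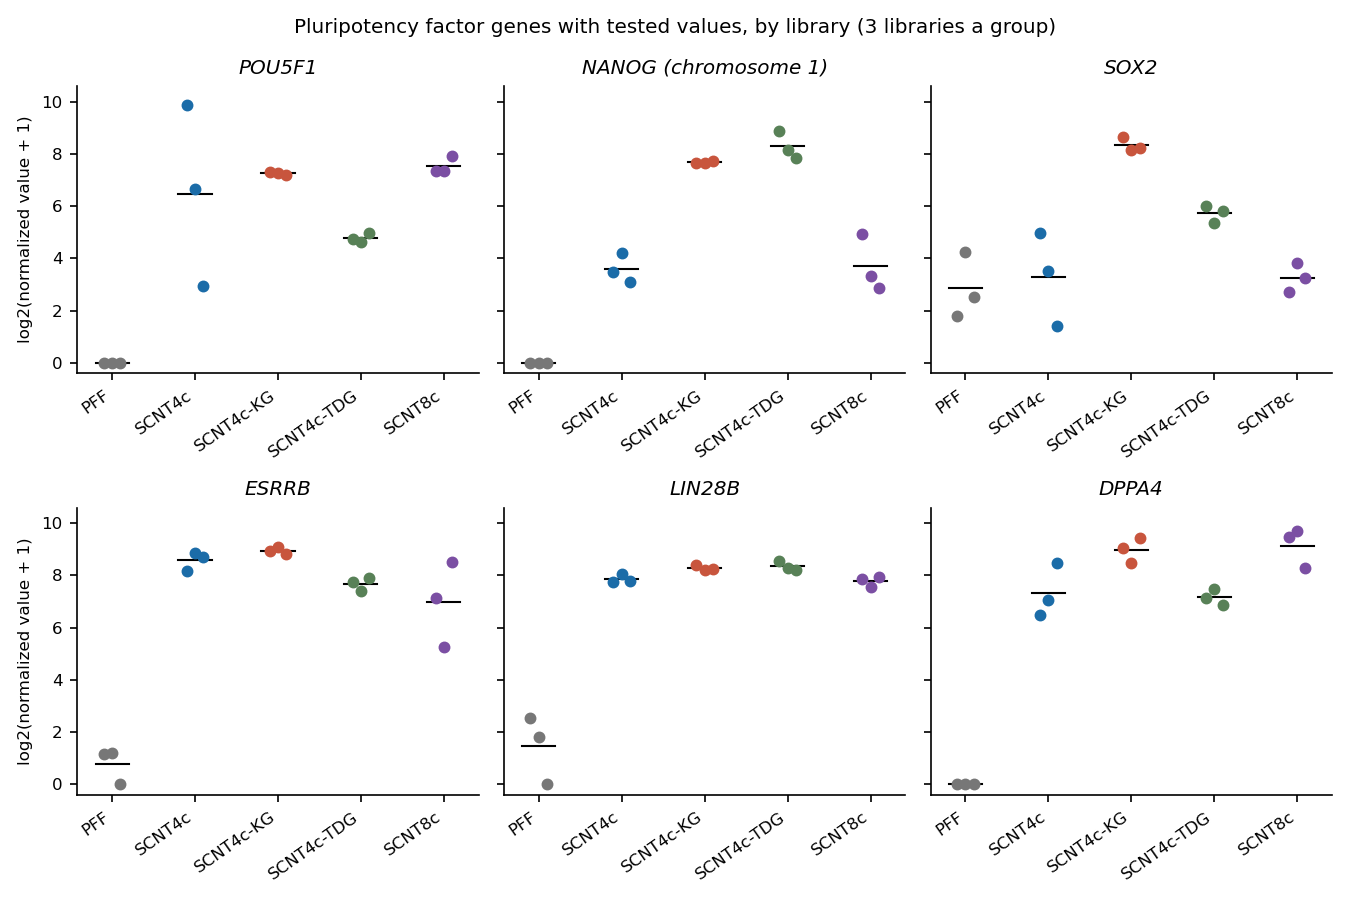
Normalized values of the 6 tested pluripotency genes on the log2(value + 1) scale (vertical axis, no unit) in the 5 groups (horizontal axis); each point is a library and each bar the mean of the 3 log2 values. NANOG on chromosome 1 and SOX2 lay above every SCNT4c library in all SCNT4c-KG and SCNT4c-TDG libraries, and the POU5F1 values of SCNT4c ran from 6.64 to 927 before the log.

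POU5F1 (chr7:23564654-23570691, minus strand, 5 exon blocks) encodes OCT4, the POU-domain factor at the centre of the circuit. It was listed at 0 in the 3 PFF libraries. Its normalized value in SCNT4c was 927 in library a, 98.7 in b and 6.64 in c (344 ± 507, SD, n = 3), from 1175, 113 and 8 reads. No other tested gene of the set was spread so widely in SCNT4c. In SCNT4c-KG the values were 157, 154 and 145 (152 ± 5.91), in SCNT4c-TDG 25.9, 23.8 and 30.6 (26.8 ± 3.49), and in SCNT8c 162, 164 and 243 (190 ± 46.1). The treated and 8-cell groups were each narrow, and each fell inside the range of SCNT4c. The log2 fold change against SCNT4c was 0.78 ± 1.12 (SE) in SCNT4c-KG (adjusted p = 0.609), −1.69 ± 1.12 in SCNT4c-TDG (adjusted p = 0.26) and 1.07 ± 1.12 in SCNT8c (adjusted p = 0.548), and limma called none. On the recovered reads, edgeR (−3.28, adjusted p = 0.0216) and DESeq2 (−3.31, adjusted p = 0.00149) called POU5F1 lower in SCNT4c-TDG. The SCNT4c-KG mean was below that of SCNT4c although the mean of the logs was above it. The limma calls changed with the SCNT4c library left out. Without library a, POU5F1 was called higher in SCNT4c-KG (log2 fold change 2.47, adjusted p = 0.0398) and its difference in SCNT4c-TDG was 0.00. Without library c, it was called lower in SCNT4c-TDG (−3.46, adjusted p = 0.00384), and the difference in SCNT4c-KG became −0.99 and that in SCNT8c −0.70. Between the treatments the groups did not overlap, at 23.8 to 30.6 in SCNT4c-TDG against 145 to 157 in SCNT4c-KG, as for 44.4% of all features, with a log2 fold change of −2.47 ± 1.12 (adjusted p = 0.153), not called by limma in the fit of all embryos or by edgeR. It was called lower by DESeq2 (−2.37, adjusted p = 0.0469) and by limma on these 2 groups alone (−2.47, adjusted p = 0.00102).

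NANOG is a homeobox factor of the circuit. Its chromosome 1 entry, a single exon whose read assignment is uncertain, was among the entries with the largest differences of the set. The means of the chromosome 5 locus transcript, described below, differed 1.97-fold between SCNT4c-KG and SCNT4c, not called by limma. The chromosome 1 entry was listed at 0 in PFF and stood at 10.3, 17.5 and 7.47 in SCNT4c (11.7 ± 5.16, 42 reads in all). In SCNT4c-KG it was at 201, 199 and 212 (204 ± 7.11), and in SCNT4c-TDG at 469, 284 and 226 (326 ± 127). No library of either treated group overlapped SCNT4c, as for 53.9% of all features in SCNT4c-KG and 58.4% in SCNT4c-TDG. The means were 17.4-fold higher in SCNT4c-KG (log2 fold change 4.09 ± 0.64, adjusted p = 0.000208) and 27.8-fold higher in SCNT4c-TDG (4.69 ± 0.64, adjusted p = 6.84e-05), and both calls stood without any 1 library. SCNT8c libraries were at 29.9, 9.14 and 6.34 (15.1 ± 12.9) and overlapped SCNT4c (0.13 ± 0.64, adjusted p = 0.917). The treated groups differed by 0.61 ± 0.64 (adjusted p = 0.574). THSD4, whose span contains this entry, was at 12.7 to 18.3 in PFF and at 0 to 6.65 in embryos.

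The chromosome 5 NANOG entry was listed at 0 in 14 libraries and at 3.32 (4 reads) in SCNT4c library c. An assembled transcript of the same locus, MSTRG.52810, carried the signal there, although the locus (chr5:62888691-62946969) also holds NANOGNB, so its reads cannot be assigned to NANOG alone. The transcript stood at 9730, 6279 and 9214 in SCNT4c (8408 ± 1862), at 19050, 16278 and 14486 in SCNT4c-KG (16605 ± 2300), at 10972, 11549 and 12781 in SCNT4c-TDG (11767 ± 924), and at 5458, 3440 and 3883 in SCNT8c (4260 ± 1060). It was at 0, 0 and 4.77 in PFF. No pair of embryo groups overlapped, as for 53.9% of all features between SCNT4c-KG and SCNT4c, 58.4% between SCNT4c-TDG and SCNT4c, 44.4% between the treatments and 23.5% between SCNT8c and SCNT4c; the shares for SCNT8c against the treated groups were not computed. Its log2 fold change was 1.0 ± 0.26 in SCNT4c-KG (adjusted p = 0.00709), with a fold under the limit of 2, so it was not called, but it was called without SCNT4c a or c, without SCNT4c-KG 2 or 3 (adjusted p from 0.00868 to 0.0242), and by edgeR and DESeq2. In SCNT8c it was −0.98 ± 0.26 (adjusted p = 0.0397), again inside the fold limit, though called with quantile normalization (−1.01, adjusted p = 0.0359), and in SCNT4c-TDG 0.51 ± 0.26 (adjusted p = 0.139).

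SOX2 (chr13:119668476-119669435, plus strand) encodes the HMG-box partner of OCT4. Its entry was a single exon of 960 bases, all coding, with no assembled transcript at its locus. It stood at 30.0, 10.5 and 1.66 in SCNT4c (14.0 ± 14.5) and at 399, 286 and 298 in SCNT4c-KG (327 ± 62.0). SCNT4c-TDG libraries lay between, at 63.6, 39.9 and 55.1 (52.8 ± 12). These 3 groups did not overlap, as for 53.9% of all features between SCNT4c-KG and SCNT4c, 58.4% between SCNT4c-TDG and SCNT4c, and 44.4% between the treatments. SOX2 was 23.3-fold higher in SCNT4c-KG by the means (log2 fold change 5.05 ± 0.81, adjusted p = 0.000248), a call that no left-out library removed, although the log2 fold change was 5.88 without SCNT4c a and 4.11 without SCNT4c c. The SCNT4c values rest on 38, 12 and 2 reads. It was 3.76-fold higher in SCNT4c-TDG (2.43 ± 0.81, adjusted p = 0.0308), a call lost without SCNT4c b or c or any 1 SCNT4c-TDG library (adjusted p from 0.0584 to 0.131), and the log2 fold change ran from 1.49 without SCNT4c c to 3.26 without SCNT4c a. It was 6.19-fold lower in SCNT4c-TDG than in SCNT4c-KG (−2.62 ± 0.81, adjusted p = 0.0384), a call lost without any 1 of these 6 libraries (adjusted p from 0.0790 to 0.134), with a pseudocount of 0.1, with all features or with all libraries scaled to the same total (adjusted p from 0.0559 to 0.0737). SCNT8c, at 5.6, 13.3 and 8.45 (9.12 ± 3.89), lay within SCNT4c, with a difference of −0.03 ± 0.81 (adjusted p = 0.988). PFF also held a few reads, with values of 2.44, 17.8 and 4.77 (8.35 ± 8.29).

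**Figure D2:**
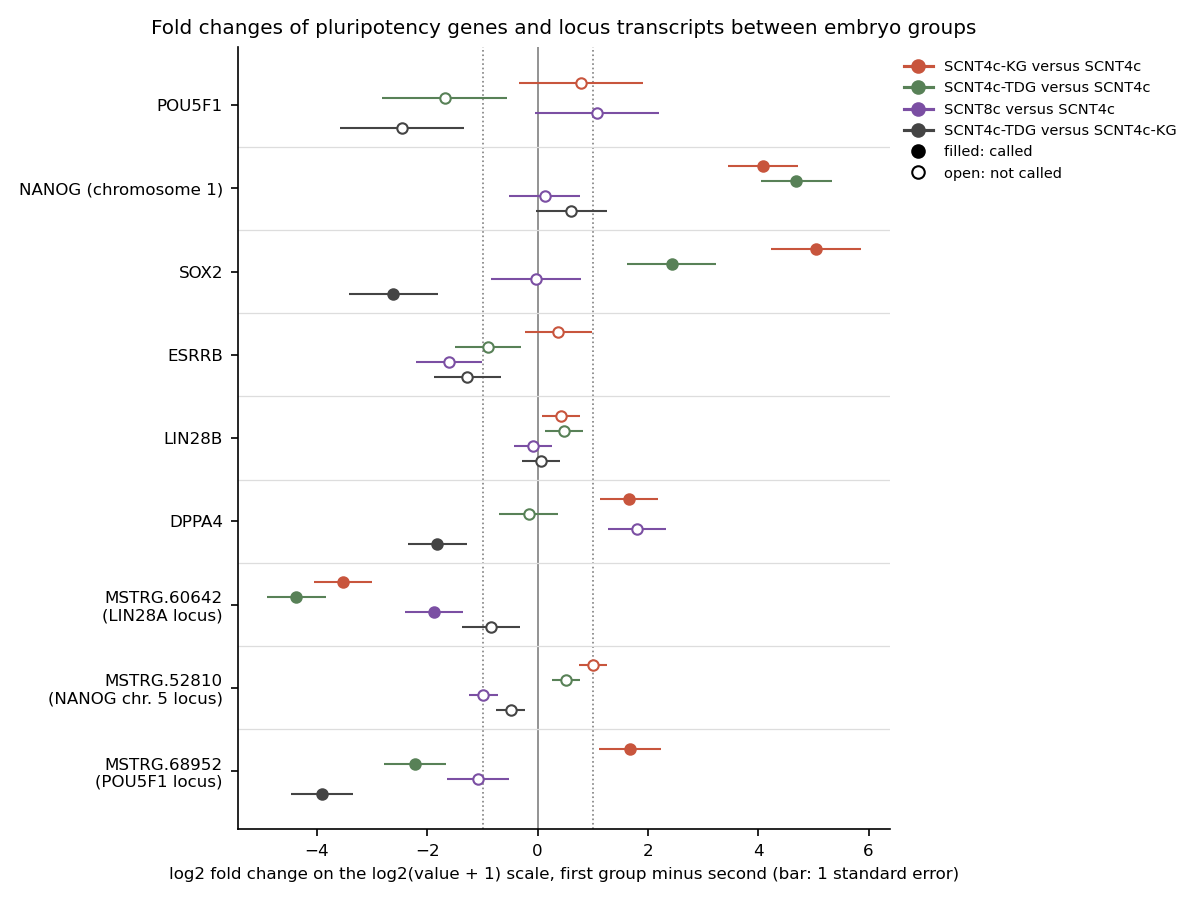
Log2 fold changes (horizontal axis, first group minus second on the log2(value + 1) scale, bars 1 standard error, dotted lines the fold limit of 2) for the 6 tested genes and for assembled transcripts at the LIN28A, NANOG and POU5F1 loci. Filled points were called, and those of NANOG on chromosome 1 and SOX2 lay to the right in both treatments against SCNT4c while those of the LIN28A locus transcript lay to the left.

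Among the transcription factors that work with the core, SALL4 (a zinc-finger factor, chr17:53082610-53103023, minus strand) was at 8.17 or below in all 15 libraries and was not tested. PRDM14 (chr4:65273988-65295362, plus strand), a PR-domain factor of the naive state and of germ cells, was listed at 0 throughout. Of the 4 assembled transcripts at the PRDM14 locus, which also holds NCOA2, MSTRG.43084 was at 0, 0 and 3.32 in SCNT4c, at 91.5, 160 and 52.7 in SCNT4c-KG, and at 30.9, 33.0 and 19.1 in SCNT4c-TDG. It was called higher in SCNT4c-KG (adjusted p = 0.000339) and in SCNT4c-TDG (adjusted p = 0.00473), but with means of 1.11 in SCNT4c and 2.60 in SCNT8c it reached the filter mean of 10 only through the treated groups, so the filter had chosen its direction. A further transcript of the locus, MSTRG.43061, moved the other way in SCNT4c-KG. It was at 207, 191 and 285 in SCNT4c (228 ± 50.1), at 39.2, 27.9 and 27.1 in SCNT4c-KG (31.4 ± 6.77), at 113, 173 and 78.0 in SCNT4c-TDG (121 ± 48.2) and at 266, 163 and 152 in SCNT8c (194 ± 62.9). MSTRG.43061 was called lower in SCNT4c-KG (log2 fold change −2.82 ± 0.48, adjusted p = 0.000391) and not in SCNT4c-TDG (−0.95 ± 0.48, adjusted p = 0.137). It was higher in SCNT4c-TDG than in SCNT4c-KG (1.86 ± 0.48, adjusted p = 0.0155), a call lost without SCNT4c-TDG 1 or 2 (adjusted p = 0.0538 and 0.0946). Whether the reads of either transcript belong to PRDM14 was not tested. Summed over the locus, PRDM14 with its assembled transcripts was not called in any embryo comparison.

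ESRRB (chr7:99511135-99699478, plus strand), an orphan nuclear receptor of the naive network, was at 285, 465 and 413 in SCNT4c (388 ± 92.8) and at 487, 541 and 456 in SCNT4c-KG (494 ± 42.8). It was at 216, 166 and 235 in SCNT4c-TDG (206 ± 35.3), and at 138, 37.4 and 365 in SCNT8c (180 ± 168). SCNT8c replicate 3 lay inside the SCNT4c range and the others below it. In the fit of all embryos no difference was called: the log2 fold change against SCNT4c was 0.38 ± 0.60 in SCNT4c-KG (adjusted p = 0.646), −0.90 ± 0.60 in SCNT4c-TDG (adjusted p = 0.265) and −1.61 ± 0.60 in SCNT8c (adjusted p = 0.102). Without SCNT8c replicate 3 the last became −2.38 and was called (adjusted p = 0.00146), and without SCNT8c replicate 2 it became −0.76 (adjusted p = 0.373). Between the treatments ESRRB was called lower in SCNT4c-TDG only where limma was run on the 2 treated groups by themselves (−1.27, adjusted p = 0.00449). The locus also holds VASH1 and ANGEL1. Its assembled transcript MSTRG.74639 was at 342, 439 and 462 in SCNT4c and at 334, 510 and 457 in SCNT8c. With locus transcripts added, limma gave ESRRB −0.35 ± 0.31 in SCNT8c (adjusted p = 0.456). In SCNT4c-TDG against SCNT4c this sum gave −0.84 ± 0.31 (adjusted p = 0.0459), with a fold under 2.

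The LIN28 genes differed in their entries in the table. LIN28A (chr6:83806178-83818550, plus strand), annotated with 618 exon bases that are all coding, was listed at 0 in all 15 libraries. The only other feature of its locus, which reached 2366 bases before and 2648 bases after the gene and held no other known gene, was the assembled transcript MSTRG.60642. Whether its reads belong to LIN28A was not tested. The transcript was at 0 in PFF and at 5040, 5404 and 6296 in SCNT4c (5580 ± 646, 20157 reads in all). It was at 542, 256 and 805 in SCNT4c-KG (535 ± 274) and at 216, 275 and 321 in SCNT4c-TDG (270 ± 52.6). The treated groups overlapped each other and lay far below SCNT4c, a fall of 10.4-fold by the means in SCNT4c-KG (log2 fold change −3.52 ± 0.53, adjusted p = 0.00014) and 20.6-fold in SCNT4c-TDG (−4.37 ± 0.53, adjusted p = 2.29e-05), and neither call was lost without any 1 library. In SCNT8c it was at 1148, 741 and 4061 (1983 ± 1811), with replicate 3 nearest to SCNT4c. This fall (−1.88 ± 0.53, adjusted p = 0.0497) was lost without any 1 SCNT4c library or SCNT8c replicate 1 or 2 (adjusted p from 0.115 to 0.175). It was also lost by edgeR (−1.36, adjusted p = 0.139), by DESeq2 (−1.32, adjusted p = 0.0710), in a fit of the 2 groups alone (adjusted p = 0.198), with a pseudocount of 0.1 (adjusted p = 0.0597) and with all features (adjusted p = 0.0777). It was −2.59 without replicate 3 (adjusted p = 0.000282). Summed oocyte and maternal markers were also lower than SCNT4c in these groups, although ZP3 was higher in SCNT4c-KG, and their part in the change of the transcript was not tested.

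LIN28B (chr1:71173291-71296131, plus strand), with no assembled transcript at its locus, kept to a narrow range in embryos. It was at 215, 264 and 220 in SCNT4c (233 ± 27.1), at 340, 298 and 299 in SCNT4c-KG (312 ± 23.7), at 370, 312 and 294 in SCNT4c-TDG (325 ± 39.5) and at 230, 185 and 246 in SCNT8c (220 ± 31.4). Both treated groups lay above SCNT4c without overlap, as groups did for 53.9% of all features in SCNT4c-KG and 58.4% in SCNT4c-TDG. The log2 fold changes were 0.43 ± 0.34 (adjusted p = 0.34) and 0.48 ± 0.34 (adjusted p = 0.295), and −0.08 ± 0.34 in SCNT8c (adjusted p = 0.898), none called.

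DPPA2 and DPPA4 lie next to each other on chromosome 13 (chr13:150186833-150200612 and chr13:150165485-150176712, plus strand). DPPA2 was low, at 0 to 2.62 in SCNT4c and PFF, 8.17 to 29.9 in SCNT4c-KG, 5.02 to 9.95 in SCNT4c-TDG and 0.831 to 6.34 in SCNT8c, and was not tested. DPPA4 was listed at 0 in PFF and was at 87.5, 132 and 359 in SCNT4c (193 ± 145). It was at 523, 359 and 697 in SCNT4c-KG (526 ± 169), at 140, 179 and 117 in SCNT4c-TDG (145 ± 31.1) and at 700, 828 and 309 in SCNT8c (612 ± 271). SCNT4c library c, at 359, was the high one of its group and lay just under the lowest SCNT4c-KG library. DPPA4 rose in SCNT4c-KG (log2 fold change 1.65 ± 0.53, adjusted p = 0.0232), a call lost without SCNT4c a or b, SCNT4c-KG 1 or 3 (adjusted p from 0.0578 to 0.106) and by edgeR. It was not called in SCNT4c-TDG (−0.17 ± 0.53, adjusted p = 0.834) or in SCNT8c (1.80 ± 0.53, adjusted p = 0.0556). Without SCNT4c c or SCNT8c 3 the SCNT8c difference was called (adjusted p = 0.0447 and 0.00346), and DESeq2 called it too (1.92, adjusted p = 0.00925). It fell in SCNT4c-TDG against SCNT4c-KG (−1.82 ± 0.53, adjusted p = 0.0289), a call lost without SCNT4c-KG 1 or 3 or any 1 SCNT4c-TDG library (adjusted p from 0.0596 to 0.105), by edgeR (adjusted p = 0.0592) or with the same total in all libraries (adjusted p = 0.0797). The transcript that shares the DPPA2 and DPPA4 locus, MSTRG.118403, was at 188, 43.7 and 221 in SCNT4c, 322, 405 and 422 in SCNT4c-KG, 945, 190 and 287 in SCNT4c-TDG and 442, 283 and 83.5 in SCNT8c. In the fit of all embryos limma called it in no comparison, but in SCNT4c-TDG it was called higher by DESeq2 (1.95, adjusted p = 0.0165) and after quantile normalization (1.86, adjusted p = 0.0479), and in SCNT4c-KG by limma on the 2 groups alone (1.63, adjusted p = 0.0378). With it added the SCNT4c-TDG against SCNT4c-KG difference of DPPA4 was −0.72 ± 0.53 (adjusted p = 0.389).

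With the assembled transcripts of each locus added to the gene, all 11 entries passed the filter and were tested among 19813 genes. In SCNT4c-KG 3 rose and 1 (LIN28A) fell, against 16.5% and 20.7% of all genes called in those directions. In SCNT4c-TDG 2 rose and 2 (LIN28A and POU5F1) fell, against 13.7% and 20.6%. In SCNT8c 1 (LIN28A) fell and none rose, against 3.4% and 2.54%. In SCNT4c-TDG against SCNT4c-KG 2 (POU5F1 and SOX2) fell and none rose, against 10.1% and 6.39%. By edgeR and DESeq2 the counts in either direction were 5 and 6 in SCNT4c-KG and 5 and 5 in SCNT4c-TDG. They were 0 and 1 in SCNT8c and 2 and 2 between the treatments. The shares of all genes by these tools were not computed, so nothing is read from these counts. The POU5F1 sum took in 11 assembled transcripts of a locus (chr7:23564654-23795967) with 24 other known genes, so it is no measure of POU5F1 alone. Of the 25 known genes at that locus, 3 (GPANK1, BAG6 and SLA-7, named after their values were seen) were listed at 0 in all 15 libraries. That held for 13.5% of all known genes that share a locus with an assembled transcript, and nothing is read from the count. BAG6 is a chaperone that most cells express, so a 0 here cannot be read as absence. The sum fell in SCNT4c-TDG (log2 fold change −1.69 ± 0.47, adjusted p = 0.0118), a call lost without SCNT4c a (adjusted p = 0.0637). The assembled transcript MSTRG.68952 of this locus was at 153, 217 and 203 in SCNT4c, at 884, 505 and 503 in SCNT4c-KG and at 45.2, 41.4 and 32.9 in SCNT4c-TDG. It fell in SCNT4c-TDG (−2.23 ± 0.56, adjusted p = 0.00689) and rose in SCNT4c-KG (1.68 ± 0.56, adjusted p = 0.0284), the rise being lost without any 1 SCNT4c library or SCNT4c-KG 1 or 2 (adjusted p from 0.0519 to 0.107).

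**Figure D3:**
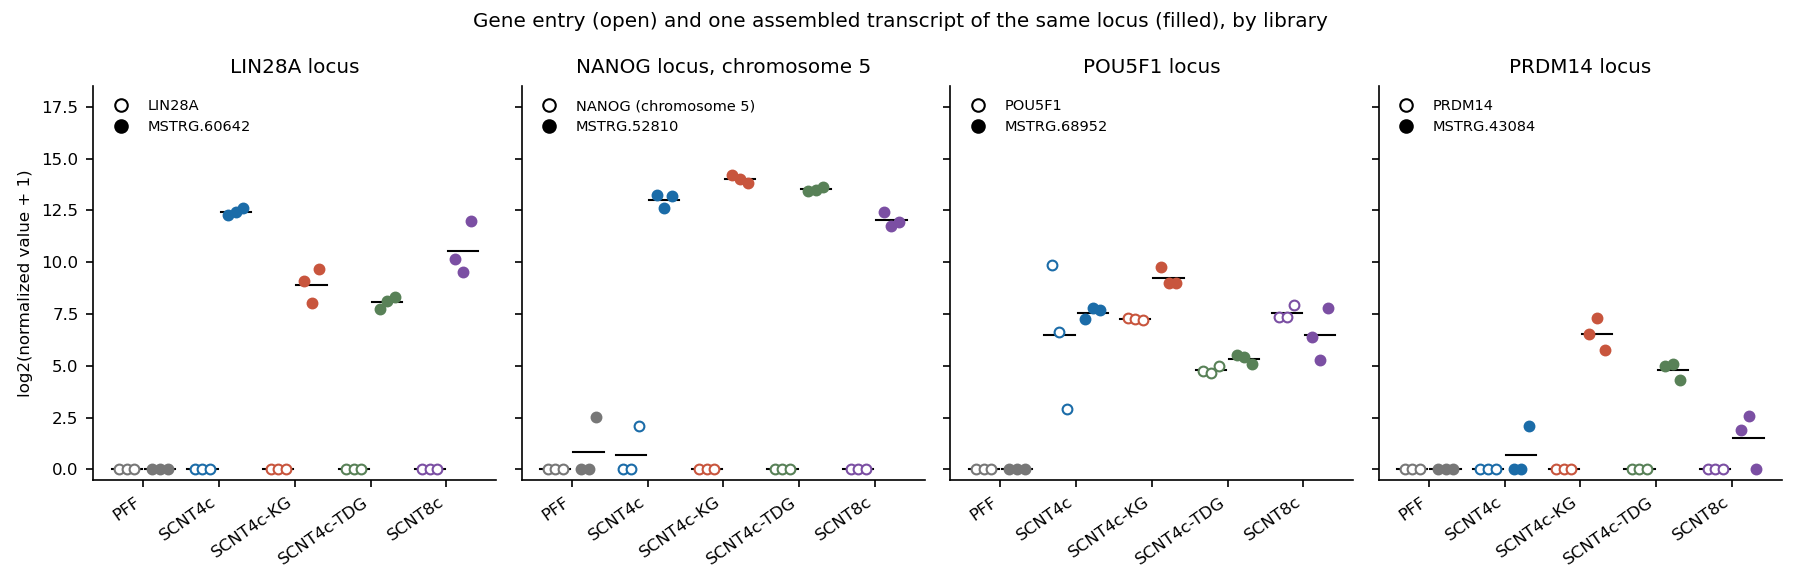
Normalized values on the log2(value + 1) scale (vertical axis, no unit) by group (horizontal axis) for a gene entry (open) and 1 assembled transcript of its locus (filled) at the LIN28A, NANOG (chromosome 5), POU5F1 and PRDM14 loci; points are libraries and bars the means of the log2 values. At LIN28A and PRDM14 the gene entry was listed at 0 in all 15 libraries while the transcript was above 0 in all 12 embryo libraries at LIN28A and in at least the 6 treated libraries at PRDM14.

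Per kilobase of exon, the order of the tested genes changed between groups. The order between genes is a description only, because the annotated exons differ in kind. Those of SOX2 (960 bases) are all coding, while the longest coding sequence of ESRRB takes 1377 of its 5919 exon bases. Mean levels per kilobase in SCNT4c were 240 for POU5F1, 157 for DPPA4, 109 for LIN28B, 65.5 for ESRRB, 14.6 for SOX2 and 10.1 for NANOG on chromosome 1. In SCNT4c-KG the highest were DPPA4 at 429 and SOX2 at 341, ahead of chromosome 1 NANOG at 176, LIN28B at 146, POU5F1 at 106 and ESRRB at 83.5. In SCNT4c-TDG chromosome 1 NANOG led at 281, followed by LIN28B at 152, DPPA4 at 118, SOX2 at 55.0, ESRRB at 34.8 and POU5F1 at 18.7. SCNT8c ran from DPPA4 at 499, POU5F1 at 132 and LIN28B at 103 to ESRRB at 30.4, chromosome 1 NANOG at 13 and SOX2 at 9.5. The place of POU5F1 in SCNT4c rested on library a. Normalized values in SCNT4c also ran from 87.5 to 359 for DPPA4 and from 1.66 to 30.0 for SOX2. In SCNT8c those of ESRRB ran from 37.4 to 365, so the places of these genes there turn on 1 library as well. The place of NANOG is that of the chromosome 1 entry alone, whose read assignment is uncertain, while the chromosome 5 locus transcript had mean normalized values of 8408 in SCNT4c and 4260 in SCNT8c.

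In donor fibroblasts 7 of the 11 entries were listed at 0 in all 3 libraries, and the share of all features at 0 there was not computed. Alone this cannot be read as absence, since LIN28A and PRDM14 were at 0 in embryos too, where transcripts of their loci were not. In PFF MSTRG.60642 was at 0 throughout, MSTRG.52810 at 0, 0 and 4.77, and MSTRG.43061 at 0, 0 and 8.34. At the POU5F1 locus, which holds other genes, MSTRG.68952 was at 0 but MSTRG.68971 at 31.8 to 53.8. Of the 5 genes tested among 19287 features against PFF, 4 were higher in SCNT4c (POU5F1, ESRRB, LIN28B and DPPA4), none was lower, and SOX2 was not called (0.45 ± 1.06, adjusted p = 0.708); 39.7% of all features were called higher and 38.5% lower. The 4 genes had PFF means under 10 and passed the filter only through SCNT4c, so their direction was fixed by the filter and nothing is read from the count. The POU5F1 call was lost with quantile normalization (5.41, adjusted p = 0.0551). LIN28B was at 4.89, 2.55 and 0 in PFF (4, 2 and 0 reads) and called higher in SCNT4c (log2 fold change 6.40 ± 0.67, adjusted p = 0.000179), the direction that the filter had fixed. This log2 fold change was 6.95 without PFF 1 and 5.67 without PFF 3. POU5F1 and DPPA4 were listed at 0 and ESRRB was at 1.27 or below in PFF, so no fold of the means is given for any of these genes. With locus transcripts added, 9 of 10 tested were higher, against 43.6% of all genes, and none was lower, against 33.8%. Of these 9, 8 had PFF means under 10 and likewise passed the filter only through SCNT4c. The other one was the POU5F1 sum, at 172, 153 and 195 in PFF against 1148, 426 and 274 in SCNT4c (log2 fold change 1.56, adjusted p = 0.0281), whose call was lost without any 1 PFF library or SCNT4c a or b (adjusted p from 0.0152 to 0.0763, the lowest with a fold under 2).

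Genes whose values followed those of a member most closely across the 15 libraries were found by Pearson's r of log2(value + 1) among 10853 known genes, a description driven by group differences that all points share. POU5F1 was nearest to ELAVL3 (r = 0.928) and IZUMO1R (0.927), NANOG on chromosome 1 to GSTM3 (0.986) and ANKRD49 (0.980), and SOX2 to PTRH2 (0.948) and FOXD3 (0.947). ESRRB was nearest to MLLT11 and ADAMTS18 (both 0.986), LIN28B to DEPDC7 (0.984) and BRDT (0.981), and DPPA4 to FOLR1 (0.992) and IGSF3 (0.991).

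The genes around this circuit were read from lists by role. Their counts stand beside 17.6% of all features called higher and 19.6% lower in SCNT4c-KG, 15.7% and 17.6% in SCNT4c-TDG, and 2.62% and 3.16% in SCNT8c. Of 15 naive and core network genes 9 were tested. In SCNT4c-KG 4 rose (KLF4, NR5A2, DPPA5 and DPPA3) and none fell, and in SCNT4c-TDG 5 rose, RIF1 being the addition, and none fell. KLF4, with means of 0 in SCNT4c and SCNT8c, and NR5A2, with 2.12 and 1.21, passed the filter only through the treated groups, so their direction was fixed by it and the count and median are a description only. The median log2 fold change of the list was 1.89 and 2.27, and that of all features −0.30 and −0.26. DPPA5, an RNA-binding protein of pluripotent cells, was at 2976, 3751 and 1769 in SCNT4c, 56717, 29347 and 29144 in SCNT4c-KG, 14651, 10085 and 14912 in SCNT4c-TDG and 940, 615 and 1316 in SCNT8c. It rose in both treatments (log2 fold change 3.75 ± 0.36, adjusted p = 2.3e-06, and 2.27 ± 0.36, adjusted p = 0.000262). It was the 1 gene of this list called in SCNT8c, where it fell (−1.56 ± 0.36, adjusted p = 0.0298), a call lost without SCNT4c a or b or SCNT8c 1 or 2 (adjusted p from 0.0926 to 0.111) or in a fit of the 2 groups alone (adjusted p = 0.198). DPPA3, a maternal factor that shields methylated DNA, was at 3840, 6149 and 4703 in SCNT4c, 22381, 22118 and 25536 in SCNT4c-KG and 32164, 33558 and 38619 in SCNT4c-TDG. It rose by 2.28 ± 0.42 (adjusted p = 0.000672) and 2.85 ± 0.42 (adjusted p = 0.000115). In SCNT8c DPPA3 was at 3410, 1452 and 7308 and was not called (−0.54 ± 0.42, adjusted p = 0.403), but was called lower without SCNT8c replicate 3 (−1.11, adjusted p = 0.0102).

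Of 12 primed network genes 11 were tested, and limma called none in SCNT8c. Genes called higher included POU3F1 and FOXD3 in SCNT4c-KG and FOXD3 and SOX11 in SCNT4c-TDG. FOXD3, with means of 1.05 in SCNT4c and 0 in SCNT8c, passed the filter only through the treated groups. Genes called lower included ETV5, ETV4, OTX2 and DNMT3B in SCNT4c-KG and OTX2 in SCNT4c-TDG. OTX2, a homeobox factor of the primed state, was at 32972, 38179 and 40599 in SCNT4c, at 7068, 6074 and 6379 in SCNT4c-KG and at 6918, 6831 and 7759 in SCNT4c-TDG. Its log2 fold change was −2.51 ± 0.46 (adjusted p = 0.000661) and −2.37 ± 0.46 (adjusted p = 0.00111). In SCNT8c OTX2 was at 9082, 5528 and 34806, with replicate 3 inside the SCNT4c range, and the difference of −1.62 ± 0.46 missed the threshold (adjusted p = 0.05003). It was called lower without SCNT8c replicate 3 (−2.39, adjusted p = 2.61e-05), and with a pseudocount of 10, a minimum mean of 50, quantile normalization or the same total in all libraries (adjusted p from 0.0383 to 0.0489). ETV4, an ETS factor, was at 103, 33.2 and 55.6 in SCNT4c but at 6.53, 31.7 and 1.42 in SCNT4c-KG (−2.80 ± 0.91, adjusted p = 0.0255), a call lost without SCNT4c a or c or SCNT4c-KG 1 or 3 (adjusted p from 0.0576 to 0.107), by edgeR (−2.08, adjusted p = 0.116), by DESeq2 (−2.07, adjusted p = 0.0623) and in a fit of the 2 groups alone (adjusted p = 0.0513). The log2 fold change of ETV4 ran from −3.78 without SCNT4c-KG 2 to −1.90 without SCNT4c-KG 3.

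Of 17 ligand and receptor genes 15 were in the table and 9 were tested. BMP4 rose and BMPR1A fell in SCNT4c-KG, while BMPR1A, IL6ST and FGF2 rose and ACVR1B fell in SCNT4c-TDG, with list medians of −0.70 and 0.28. BMP4, a ligand of the BMP pathway that was named after its values were seen, was at 57.6, 2.62 and 11.6 in SCNT4c, at 1227, 1123 and 1012 in SCNT4c-KG and at 22.6, 8.44 and 17.6 in SCNT4c-TDG. The SCNT4c-KG libraries stood far above the rest (6.33 ± 0.88, adjusted p = 7.15e-05, against SCNT4c, or 7.37 without SCNT4c a and 5.36 without SCNT4c b), and SCNT4c-TDG lay below SCNT4c-KG (−6.12 ± 0.88, adjusted p = 0.000375). IL6ST, the shared receptor subunit of the LIF family, was at 701, 579 and 345 in SCNT4c, 519, 412 and 567 in SCNT4c-KG and 2427, 2534 and 2152 in SCNT4c-TDG, where it rose (2.19 ± 0.33, adjusted p = 0.000143). FGF2, a fibroblast growth factor, was at 53.6, 194 and 116 in SCNT4c and 423, 236 and 363 in SCNT4c-TDG (1.62 ± 0.54, adjusted p = 0.0304), a call lost without SCNT4c a or c or SCNT4c-TDG 1 or 3 (adjusted p from 0.0594 to 0.133).

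Of 16 genes of the LIN28 and let-7 axis 14 were in the table and 9 were tested. In each treatment TRIM71 and ZCCHC6 rose and IGF2BP3 and DGCR8 fell, with list medians of −0.26 and 0.17. TRIM71, a let-7 target that binds RNA, was at 265, 218 and 241 in SCNT4c, 724, 661 and 1116 in SCNT4c-KG and 2593, 2689 and 2540 in SCNT4c-TDG. It rose in SCNT4c-KG (1.75 ± 0.33, adjusted p = 0.000817), in SCNT4c-TDG (3.43 ± 0.33, adjusted p = 2.67e-06), and in SCNT4c-TDG against SCNT4c-KG (1.68 ± 0.33, adjusted p = 0.00297). IGF2BP3, an mRNA-binding protein, was at 78575, 54616 and 69029 in SCNT4c, 17874, 13462 and 14221 in SCNT4c-KG and 10078, 11444 and 12582 in SCNT4c-TDG. Its log2 fold change was −2.15 ± 0.33 (adjusted p = 0.000157) and −2.56 ± 0.33 (adjusted p = 3.7e-05).

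Of 13 partners and paralogs of these genes 7 were tested, with SOX15 and POU5F2 higher in SCNT4c-KG, POU5F2 higher in SCNT4c-TDG, and none lower in either, with list medians of −0.12 and −0.10. POU5F2, a POU-domain relative of OCT4, was at 63.1, 14.0 and 14.9 in SCNT4c, 131, 69.8 and 121 in SCNT4c-KG and 278, 475 and 357 in SCNT4c-TDG. It rose by 3.87 ± 0.61 in SCNT4c-TDG (adjusted p = 0.000235, 4.55 without SCNT4c a) and by 2.07 ± 0.61 in SCNT4c-KG (adjusted p = 0.0156, 2.76 without SCNT4c a), the latter being lost without SCNT4c b or c or SCNT4c-KG 1 (adjusted p from 0.0527 to 0.0683). SOX15, a SOX-family relative of SOX2, was at 0.874 or below in SCNT4c and at 165, 121 and 67.0 in SCNT4c-KG (adjusted p = 0.00034), the group through which alone it passed the filter, with 6.69, 21.5 and 1.53 in SCNT4c-TDG, where edgeR (adjusted p = 0.0258) and DESeq2 (adjusted p = 0.00742) but not limma called it higher. It was lower in SCNT4c-TDG than in SCNT4c-KG (−3.87 ± 1.04, adjusted p = 0.0194), a call lost without SCNT4c-KG 1 or 2 or SCNT4c-TDG 1 or 3 (adjusted p from 0.0628 to 0.105), by edgeR (adjusted p = 0.0610) or with a pseudocount of 0.1 (adjusted p = 0.134), and its log2 fold change ran from −4.65 without SCNT4c-TDG 2 to −3.08 without SCNT4c-TDG 3. SCNT4c-KG carried SOX15 through the filter, so its directions against SCNT4c and SCNT4c-TDG were fixed. Both SOX15 differences are a description only. In SCNT8c limma called no gene of the ligand and receptor, LIN28 and let-7, or partner lists.

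**Figure D4:**
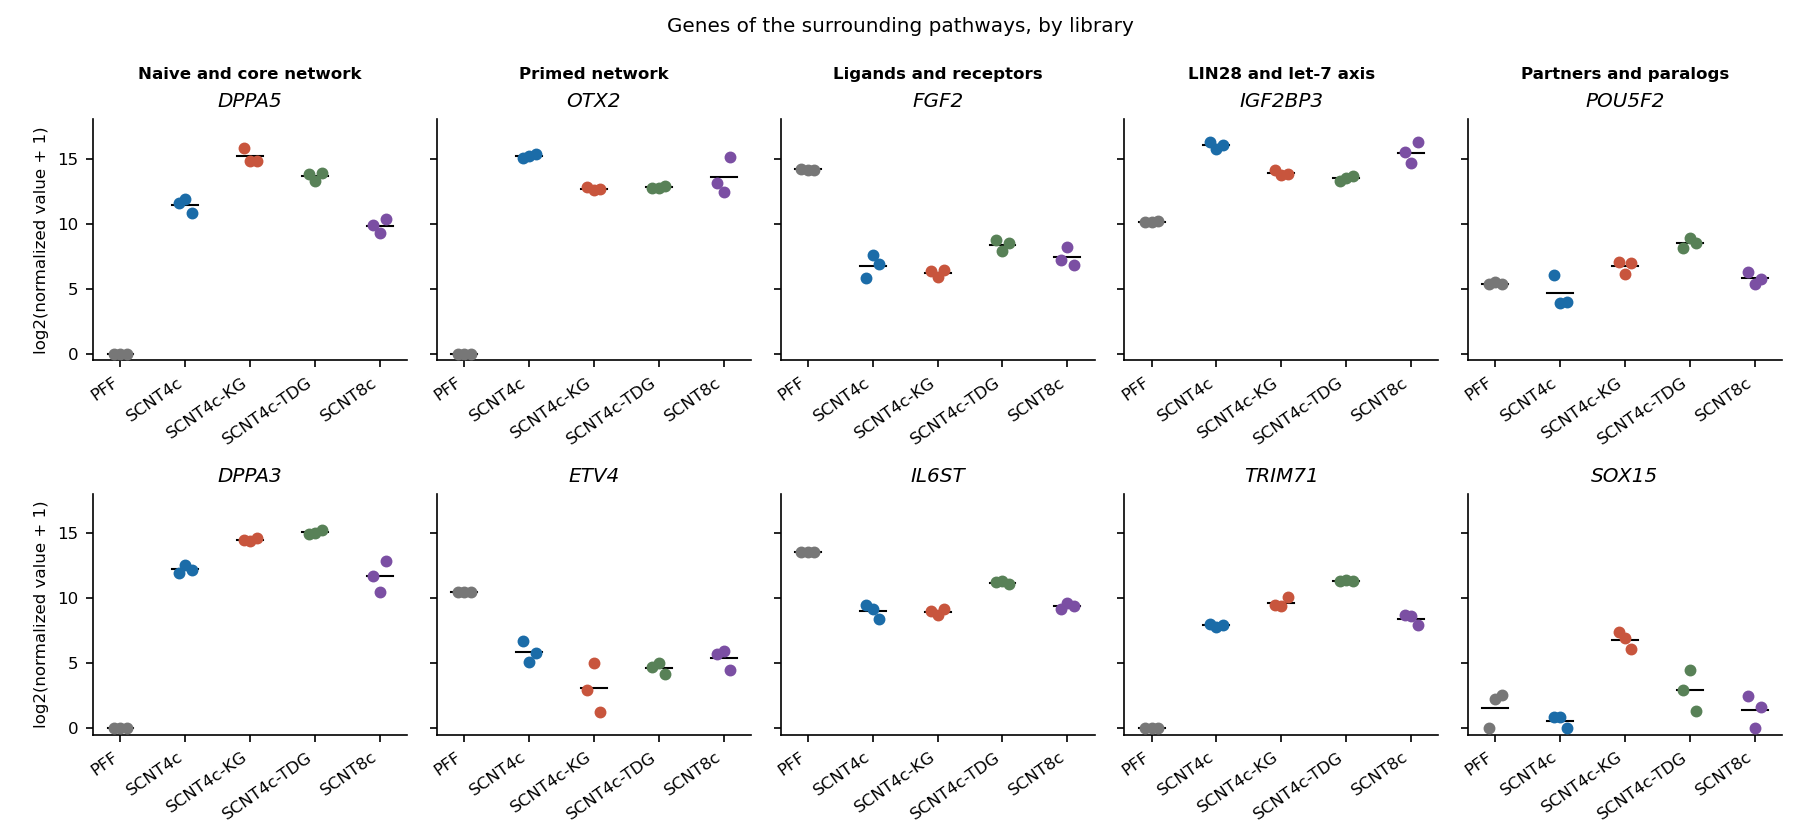
Normalized values on the log2(value + 1) scale (vertical axis, no unit) by group (horizontal axis) for 2 genes of each list by role; points are libraries and bars the means of the log2 values. DPPA5, DPPA3 and TRIM71 were higher and OTX2 and IGF2BP3 lower in all SCNT4c-KG and SCNT4c-TDG libraries than in every SCNT4c library.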

How the data were processed

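RNA of pig fetal fibroblasts and SCNT embryos was amplified as SMARTer cDNA and read from both ends at 150 bases. According to the submitters' processing notes and the methods, the authors used CASAVA 1.8.2, Trimmomatic 0.39, STAR 2.5.3a on Sscrofa 11.1 (uniquely mapped reads), StringTie 2.1.2 for transcript assembly, HTSeq for counting and DESeq2 for fold changes, which were not used here. The deposited signal values are read numbers divided by a library factor, whose source was not given in the sources used here, nor were the strand setting and any batches. All values were whole multiples of 1 read within 0.01. Of 43535 entries, 241 repeats with identical values were removed, leaving 43294 features.

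limma 3.58.1 (R 4.3.3) was run on log2(value + 1) with a trended variance, leaving out features whose mean in the fitted libraries was under 10. Embryo comparisons came from 1 fit of 12 libraries and SCNT4c against PFF from a fit of 6. Calls needed a Benjamini-Hochberg adjusted p under 0.05 and a fold above 2. With 3 libraries against 3 an exact permutation test cannot go below 0.1, so none was used. The sources do not say that libraries came from separate cultures or collections beyond their labels, so p-values measure the spread between libraries only. Alternatives were other pseudocounts, filters, scalings, edgeR 4.0.16 and DESeq2 1.42.0 on the recovered reads, and each library left out. A replicate block for SCNT4c-TDG against SCNT4c-KG was added after the data were seen. The script was tested on simulated data.

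The genes and lists were chosen with earlier results of these data known. Counts and medians of the primed network list are not reported here. From each list, the 2 called genes with the highest group mean are described, and from the likeness search the 2 nearest genes with a symbol for each member with a group mean of at least 100. A known gene and an assembled transcript were taken as sharing a locus where the table gave both the same locus. Coding sequences were read from the Sscrofa11.1 reference and compared with blastn 2.17.0.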

Additional observations from a re-analysis of the deposited data

How the results depend on the processing

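Replicate numbers shared by SCNT4c-TDG and SCNT4c-KG did not pair their libraries (correlations of deviations −0.0012, −0.0020 and 0.025 for the 3 pairs). The count of pluripotency genes called between these groups was 2, 4 in a fit of the 2 groups alone with the replicate block (26.5% of all features called) and 4 in that fit without it (27.5%), 1 with a pseudocount of 0.1, with all features or by edgeR, and 0 with all libraries scaled to the same total. In SCNT8c against SCNT4c it was 0, and 1 with a pseudocount of 10, a minimum mean of 50, quantile normalization, DESeq2, or locus transcripts added. With locus transcripts added it was 4 rather than 2 in SCNT4c-TDG against SCNT4c and 9 rather than 4 against PFF. Counts with locus transcripts were 1 in SCNT8c, 0 with a pseudocount of 0.1, all features, edgeR or the 2 groups alone, and 2 with no fold limit, and were 2 between the treatments, 1 with a pseudocount of 0.1, all features or the same total. Leaving out 1 library gave 2 to 3 (SCNT4c-KG), 1 to 2 (SCNT4c-TDG), 0 to 2 (SCNT8c), 0 to 1 (between treatments) and 4 to 4 (PFF) genes, and 3 to 5, 3 to 4, 0 to 2, 1 to 1 and 8 to 9 with locus transcripts. The called genes against PFF, apart from the POU5F1 sum, had their direction fixed by the filter, so these PFF counts are a description only.

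Signs of differences that were not called turned under these settings. POU5F1 became −0.94 in SCNT4c-KG by both edgeR and DESeq2, and −0.57 and −0.55 in SCNT8c. SOX2 in SCNT8c became 0.074 with a pseudocount of 0.1, 0.76 with quantile normalization and 0.015 with the same total, and SOX2 against PFF −1.52 with quantile normalization. LIN28B in SCNT8c became 0.085 with quantile normalization, 0.071 by edgeR and 0.15 by DESeq2. DPPA4 in SCNT4c-TDG became 0.13 with quantile normalization and 0.11 with the same total. Between the treatments MSTRG.52810 became 0.22 with quantile normalization, IGF2BP3 0.26 with it, and MSTRG.118403 0.078, 0.33, 0.46 and 0.43 with quantile normalization, the same total, edgeR and DESeq2. IL6ST in SCNT4c-KG became 0.076, 0.00998 and 0.056 with quantile normalization, edgeR and DESeq2, MSTRG.43061 in SCNT8c 0.0041 by DESeq2, and BMP4 in SCNT4c-TDG −0.051 with a pseudocount of 10 and −0.22 by edgeR and DESeq2. With 1 library left out, log2 fold changes ran across 0 for POU5F1 (−0.99 to 2.47 in SCNT4c-KG, −3.46 to 0.00094 in SCNT4c-TDG, −0.70 to 2.76 in SCNT8c, and −0.98 to 0.054 there with locus transcripts), NANOG on chromosome 1 in SCNT8c (−0.49 to 0.55), SOX2 in SCNT8c (−0.97 to 0.80) and against PFF (−0.086 to 1.39), LIN28B in SCNT8c (−0.17 to 0.036) and between treatments (−0.042 to 0.12), DPPA4 in SCNT4c-TDG (−0.60 to 0.41), MSTRG.118403 between treatments (−0.70 to 0.45), DPPA3 in SCNT8c (−1.11 to 0.055), IL6ST in SCNT4c-KG (−0.36 to 0.15) and BMP4 in SCNT4c-TDG (−0.76 to 1.25). The cause was not tested. The share of all calls that were higher moved from 45.3% to 57.0% with quantile normalization in SCNT8c, and from 43.6% to 64.2% with the same total between treatments. It was 79.5% by edgeR and 71.8% by DESeq2 in SCNT8c, which change the test and the input as well as the scaling. The 42 reads of the chromosome 1 NANOG entry in SCNT4c limit its fold change.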
